A study of Macaca fascicularis with 10 samples.

Results

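ANK3, SCN2A, CNTNAP2 and TCF4 are genes in which loss or disruption of 1 copy has been tied to neurodevelopmental or psychiatric disorders. They were taken by name, 4 of the 7229 genes of a table of allele-resolved read counts. Total RNA, depleted of ribosomal RNA and sequenced as stranded paired-end libraries, came from the dorsal raphe nucleus, a serotonin cell group of the brainstem. It was taken from 10 cynomolgus macaques (Macaca fascicularis), all female, and the labels name the mother and father of each. No treatment or genotype is named in the labels, and ages are not given in the sources used here. All animals form 1 group, so the design compares the maternal with the paternal allele inside each daughter and then compares daughters. Daughters are numbered 1 to 10 in label order. Daughters 1, 7 and 8 have 1 father in common, daughters 4 and 5 have another, and daughters 6 and 10 have 1 mother in common.

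Each gene has a maternal and a paternal copy, and most genes of the brain are read from both. ANK3 encodes ankyrin-G, the scaffold that assembles the axon initial segment, where action potentials start. SCN2A encodes the voltage-gated sodium channel Nav1.2, which ankyrin-G anchors there. CNTNAP2 encodes CASPR2, a cell adhesion protein of the neurexin superfamily that clusters potassium channels beside the node of Ranvier. TCF4 encodes an E protein, a basic helix-loop-helix transcription factor. Loss of 1 copy of TCF4 causes Pitt-Hopkins syndrome, and SCN2A variants cause epilepsy, autism and intellectual disability. A gene for which 1 intact copy does not suffice is called dose sensitive, and the output of each copy then matters to the cell.

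The daughters' libraries held from 30090 to 999471 allelic reads, with a median of 522898, and the paternal columns took from 49.3% to 50.4% of them. Daughter 1 was the shallowest. The serotonin synthesis gene TPH2 had reads in 7 daughters, from 44.7 to 5412 counts scaled to a common total of allelic reads (counts per 1e6 reads, CPM), its partner enzyme gene DDC in 7 and the serotonin transporter gene SLC6A4 in 2. The serotonin neuron factor FEV and all 7 astrocyte markers of the list used had no row and were not analysed here. The parental sides are as labelled, and imprinted genes did not keep to 1 side. GRB10 lay almost wholly in the maternal column in 3 daughters and in the paternal column in 4. DLK1 was 98.6% paternal in daughter 3 and 1.74% paternal in daughter 6. Distances from an equal share, which do not depend on the side, are therefore given beside means by column. The main values of the 4 genes that depend on the side are also given with the columns exchanged in daughters 2, 6 and 9. These are the 3 with GRB10 on the maternal side, an alternative chosen after seeing the data. Daughters 1, 7 and 8, in which GRB10 was not measured, stay as labelled in that alternative. Mean shares of other genes are as labelled.

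ANK3, SCN2A and CNTNAP2 were read about equally from both alleles in most daughters measured. The shares farthest from equal were those of TCF4 in daughters 7, 8 and 9. Of these only daughter 9 was called in the tests below, and daughters 7 and 8 rested on 72 and 22 reads. Of 33 measurements of a gene in a daughter, 32 had 20 or more allelic reads, the minimum used here. Of these 32, 28 lay between 40% and 60% paternal, against 74.5% of the 22693 such measurements of all genes. Shares scatter more at low counts, and this comparison was not matched for depth. The maternal column held more reads in 23 and the paternal column in 9, but with the columns exchanged the count was 16 against 16. The mean paternal share was 50.9% ± 5.25 for ANK3 (SD, n = 10), 49.2% ± 4.40 for SCN2A (SD, n = 6), 46.5% ± 5.57 for CNTNAP2 (SD, n = 9) and 41.0% ± 21.6 for TCF4 (SD, n = 7). The mean distance from 50% was 3.87 ± 3.44 percentage points for ANK3, 3.13 ± 2.88 for SCN2A, 5.48 ± 3.32 for CNTNAP2 and 15.5 ± 16.7 for TCF4 (SD over the same daughters).

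**Figure D1:**
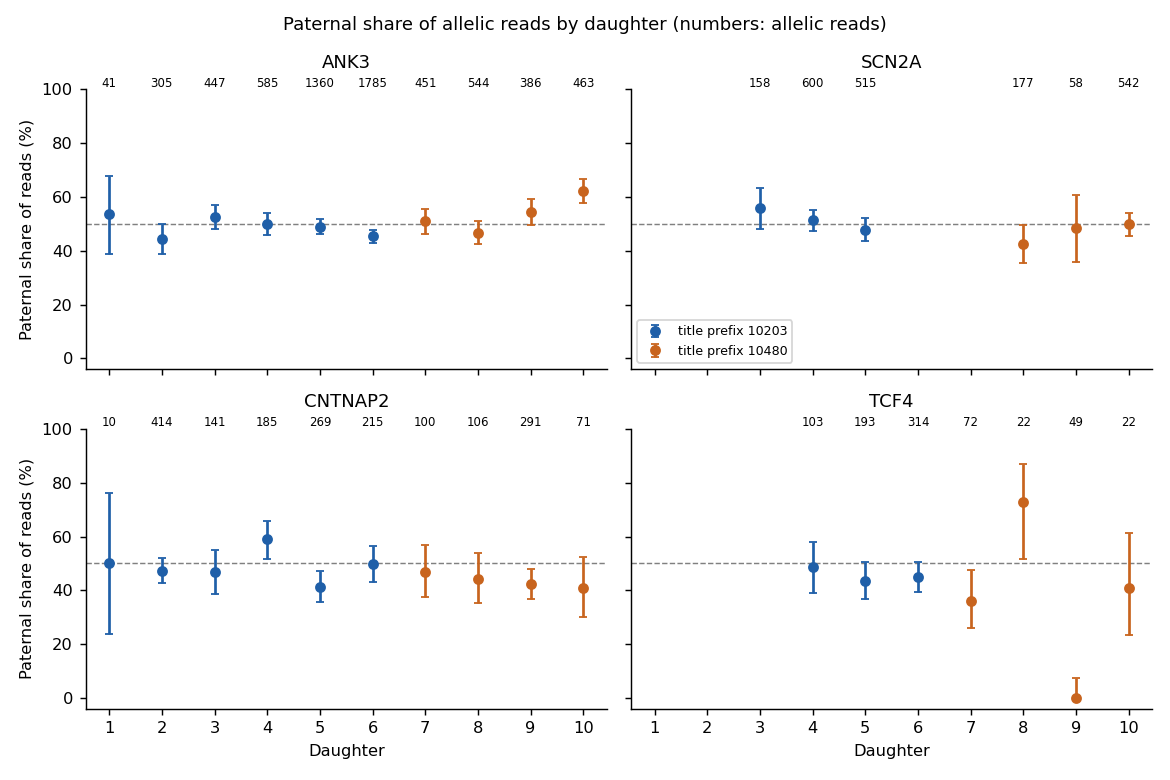
Paternal share of allelic reads (%, vertical axis) of each gene in daughters 1 to 10 (horizontal axis); bars are 95% Wilson intervals, which cover counting error only, colours are the 2 title prefixes and the number above each point is its allelic reads. ANK3, SCN2A and CNTNAP2 lie near the dashed line at 50%, while TCF4 reaches 72.7% in daughter 8 and 0% in daughter 9.

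ANK3 could be measured in every daughter. The lowest paternal share was 44.3% in daughter 2, with 170 maternal and 135 paternal reads, and the median over daughters was 50.5%. The highest was 62.2% in daughter 10, with 175 maternal and 288 paternal reads. The next highest was 54.4% in daughter 9. The deepest measurement was in daughter 6, with 976 maternal and 809 paternal reads, a share of 45.3% (95% Wilson interval 43.0 to 47.6). Daughter 5 had 694 and 666 reads, a share of 49.0%, and daughter 4 had 293 and 292, a share of 49.9%. These 2 daughters have the same father and their ANK3 shares differed by 0.944 percentage points. Daughters 3, 7, 8 and 1 had shares of 52.6%, 51.0%, 46.7% and 53.7%. The intervals of daughters 2, 6 and 10 left out 50% and those of the other 7 included it. Daughter 1, with 41 reads, had the widest interval, 38.7 to 67.9. Daughters 6 and 10, which have 1 mother in common, lay on opposite sides, and the share of daughter 6 minus that of daughter 10 was -16.9 points. With the columns of daughter 6 exchanged its share was 54.7%, on the same side as daughter 10 and 7.53 points from it.

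SCN2A had reads in 6 daughters and was the most evenly read of the 4 by mean distance from 50%. Its paternal share ranged from 42.4% in daughter 8, with 102 maternal and 75 paternal reads, to 55.7% in daughter 3, with 70 and 88. The median was 49.0%. Daughters 4, 5 and 10 gave the deepest values, with 292 and 308 reads, 269 and 246, and 272 and 270, or 51.3%, 47.8% and 49.8%. The smallest total was 58 reads in daughter 9, at 48.3%. Only the interval of daughter 8, 35.3 to 49.7, left out 50%. In daughters 1, 2, 6 and 7 the gene had no allelic count, which does not show that it was silent there.

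CNTNAP2 had shares between 40.8% and 58.9% in the 9 daughters with 20 or more reads. As labelled, the maternal column was the larger in 8 of them, and with the columns exchanged in 5. The lowest share, 40.8% in daughter 10, rested on 71 reads and its interval included 50%. Daughter 5 followed at 41.3% (35.5 to 47.2) and daughter 9 at 42.3% (36.7 to 48.0), where 168 maternal and 123 paternal reads were counted. The median was 46.8%. As labelled, daughter 4 was the exception, with 76 maternal and 109 paternal reads, a share of 58.9% (51.7 to 65.8). Its paternal half-sister, daughter 5, had 158 and 111 reads, so this pair lay 17.7 points apart. Daughter 2, the deepest, had 218 and 196 reads, a share of 47.3%. Daughters 3, 6, 7 and 8 had shares of 46.8%, 49.8%, 47.0% and 44.3%, and like daughter 2 their intervals included 50%. With the columns exchanged the mean was 48.9% ± 6.58 (SD, n = 9). Daughter 1 had 5 reads in each column. Over the 1792 pooled reads of the 9 daughters, 46.6% were paternal (44.3 to 48.9), an interval for counting error that takes no account of the spread between animals.

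TCF4 was the least deeply counted and the most uneven. In daughter 9 all 49 reads lay in the maternal column and 0 in the paternal column, which allows a paternal share of up to 6.12% from a count of 0. As labelled, daughter 8 had the opposite order, with 6 maternal and 16 paternal reads, a share of 72.7% (51.8 to 86.8). Its paternal half-sister, daughter 7, had 46 and 26 reads, a share of 36.1% (26.0 to 47.6). The other daughters lay nearer the middle. Daughter 6 had 173 and 141 reads, or 44.9%, daughter 5 had 109 and 84, or 43.5%, and daughter 4 had 53 and 50, or 48.5%. Daughter 10 had 13 and 9 reads, or 40.9%, and an interval of 23.3 to 61.3. As labelled, the 3 shallow measurements under 50 reads included both the lowest and the highest share. The labelled mean was 43.3% ± 5.22 with a minimum of 50 reads (SD, n = 4) and 47.8% ± 12.9 without daughter 9 (SD, n = 6). With the columns exchanged daughter 9 was at 100%, on the same side as daughter 8. The mean was then 56.7% ± 22.5 (SD, n = 7).

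**Figure D2:**
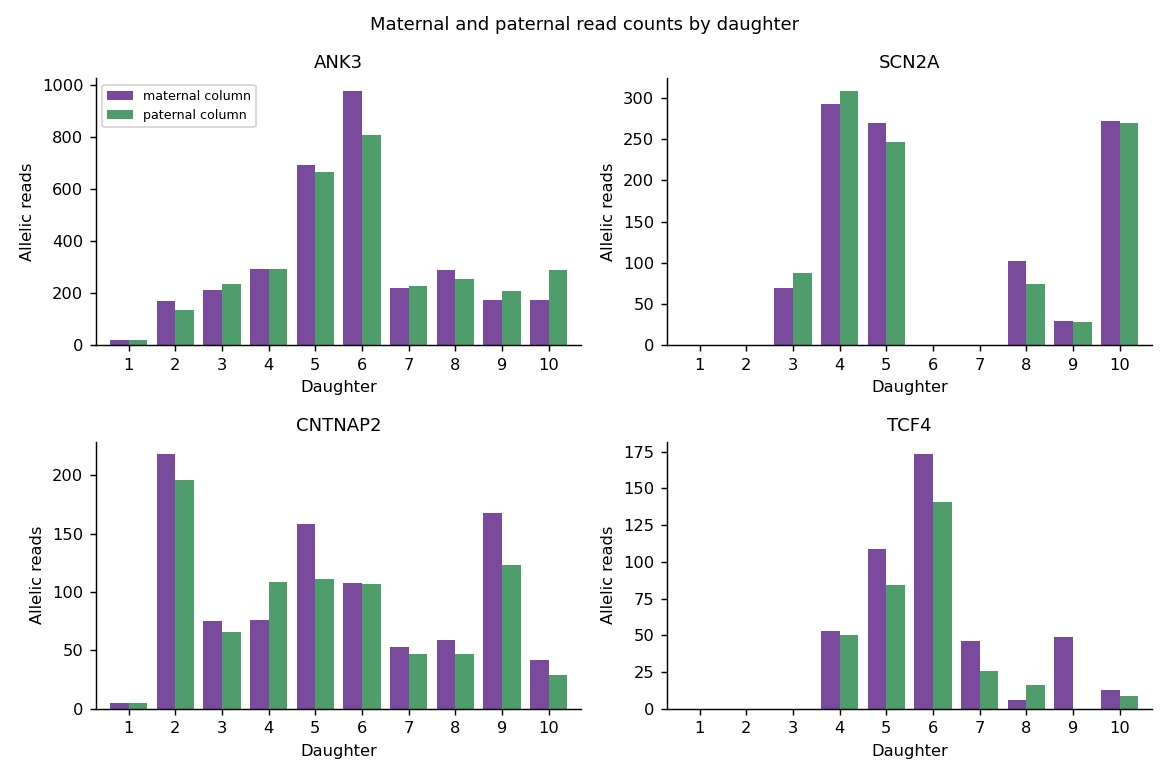
Allelic reads (vertical axis, linear from 0) in the maternal (purple) and the paternal (green) column of each daughter (horizontal axis) for the 4 genes; a daughter without bars had no allelic count. Bars of a pair are of like height for most daughters. Pairs of unequal height include ANK3 in daughter 10 (175 against 288) and CNTNAP2 in daughter 5 (158 against 111). Others are TCF4 in daughters 7 (46 against 26), 8 (6 against 16) and 9 (49 against 0).

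The first comparison asked whether 1 parental column held more reads of a gene over the daughters as a whole. It takes the daughters as independent, as do the tests of variation and correlation below, although some have a parent in common. None of the 4 was called. In edgeR's quasi-likelihood test with the daughter as block, the log2 ratio of paternal to maternal reads was 0.04 ± 0.09 for ANK3, -0.04 ± 0.13 for SCN2A, -0.19 ± 0.11 for CNTNAP2 and -0.60 ± 0.53 for TCF4 (SE). The adjusted p was 1 for each. Unadjusted, the edgeR p-values were 0.654, 0.741, 0.101 and 0.286 in the same order. Over all genes 0 of 2981 were called, or 0%, with 93 at an unadjusted p under 0.05, and DESeq2 also called 0, with 62. The TCF4 ratio was -0.21 without daughter 9. With the columns exchanged it was 0.33 ± 0.56 (SE), of the opposite sign, and those of ANK3, SCN2A and CNTNAP2 were 0.12, -0.019 and -0.045, each with an edgeR adjusted p of 1. Those of ANK3 and SCN2A changed sign without daughter 10 (-0.034) and without daughter 8 (0.035).

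The labels give 2 title prefixes, 10203 for daughters 1 to 6 and 10480 for daughters 7 to 10, and shares were compared between them. What the prefixes stand for is not stated in the labels. As labelled, mean shares by prefix, 10203 first, were 49.1% ± 3.77 (SD, n = 6) and 53.6% ± 6.56 (SD, n = 4) for ANK3. They were 51.6% ± 3.97 and 46.8% ± 3.93 for SCN2A (SD, n = 3 each). For CNTNAP2 they were 48.8% ± 6.45 (SD, n = 5) and 43.6% ± 2.68 (SD, n = 4). TCF4 had 45.7% ± 2.59 (SD, n = 3) and 37.4% ± 29.8 (SD, n = 4), so its wide spread lay wholly among the daughters of prefix 10480. The prefix is also tied to depth there, since the 3 TCF4 daughters of prefix 10203 had 103 or more reads and the 4 of prefix 10480 had 72 or fewer. The part of depth in the spread was not tested. With the columns exchanged, ANK3 was at 55.7% in daughter 2, 54.7% in daughter 6 and 45.6% in daughter 9. TCF4 was then at 55.1% in daughter 6 and 100% in daughter 9. The direction of the differences between prefixes in ANK3 and TCF4 therefore rests on the side labels. By edgeR's interaction test none of the 4 differed between prefixes (adjusted p = 1 for each), where 1 of 2981 genes, or 0.0335%, was called.

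The second comparison asked in which daughters a gene was read unequally. With an exact binomial test of each measurement against equal shares, adjusted over all 22693 measurements, 4 of 32 were called, against 10.4% of all. They were ANK3 in daughter 6 (binomial adjusted p = 0.0015) and daughter 10 (binomial adjusted p = 4.97e-06), CNTNAP2 in daughter 5 (binomial adjusted p = 0.0482) and TCF4 in daughter 9 (binomial adjusted p = 2.37e-13). The share of measurements called among the 4 genes was 12.5%, close to that of all genes. This test treats reads as independent and compares the reads of 1 library only. A second test, the beta-binomial, sets each share against the spread of all genes in the same daughter. It called 1 of the 32, TCF4 in daughter 9 (beta-binomial adjusted p = 9.68e-06), against 1.75% of all measurements. ANK3 in daughter 10 had an adjusted p of 1 by the beta-binomial test. Counts with no read at all on 1 allele were uncommon, with 79 among the measurements of all genes. In daughter 9 there were 9 among 1948, or 0.462%, of which 5 held maternal reads only.

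**Figure D3:**
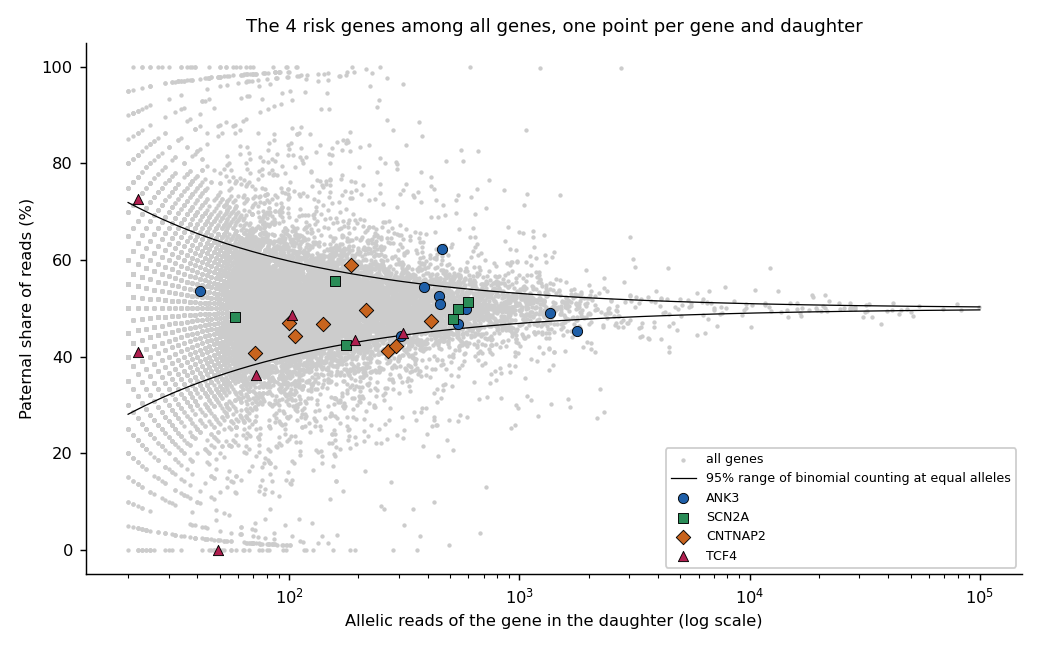
Paternal share (%, vertical axis) against allelic reads (horizontal axis, log scale) for each pair of gene and daughter reaching 20 allelic reads (grey), with the 4 genes in colour; black lines enclose 95% of binomial counts at equal alleles. Most coloured points lie within or near the lines, ANK3 at 62.2% lies above them with 463 reads, and TCF4 at 0% lies far below them with 49 reads.

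The third comparison asked whether the share of a gene differed between daughters beyond counting error. A heterogeneity chi-square over the daughters with 20 or more reads, adjusted over 3602 genes, called ANK3 (chi-square 53.6 on 9 degrees of freedom, adjusted p = 2e-07), TCF4 (48.1 on 6, adjusted p = 1.04e-07) and CNTNAP2 (18.7 on 8, adjusted p = 0.0457). SCN2A was not called (7.51 on 5, adjusted p = 0.308). Among all genes 37.1% were called, so a call by this test is common. The ratio of chi-square to its degrees of freedom was 5.96 for ANK3, 1.50 for SCN2A, 2.34 for CNTNAP2 and 8.02 for TCF4, against a median of 1.95 over all genes. Among the 1750 genes measured in 6 or more daughters these ratios stood at the percentiles 81.6, 30.6, 49.7 and 86.5. At a given spread of shares the ratio grows with the reads, and the percentiles are not matched for depth. ANK3 had 6367 pooled reads and an SD of 5.25 points, and CNTNAP2 had 1792 and 5.57. The higher percentile of ANK3 thus did not go with a larger observed SD. Counting error is part of both SDs and was expected to be smaller for ANK3 (3.23 points) than for CNTNAP2 (4.09). The spread beyond counting error was not compared. Against the spread of all genes, in the beta-binomial form of the test, TCF4 alone was called (adjusted p = 0.000371), where 6.8% of genes were.

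These calls rested on few animals. Without daughter 10 the chi-square of ANK3 fell to 20.6 and the gene was still called (adjusted p = 0.0281). CNTNAP2 was no longer called without daughter 4 (adjusted p = 0.644), daughter 5 (0.0900) or daughter 9 (0.0652). TCF4 was not called without daughter 9 (adjusted p = 0.163), where its chi-square fell from 48.1 to 9.98. With the columns exchanged the calls were the same, with an adjusted p of 6.94e-06 for ANK3, 0.309 for SCN2A, 0.00324 for CNTNAP2 and 7.79e-11 for TCF4. The SD expected from counting alone at these depths was 3.23 points for ANK3, 3.80 for SCN2A, 4.09 for CNTNAP2 and 7.15 for TCF4. The observed SD of SCN2A, 4.40 points, was thus near the counting error, and that of TCF4, 21.6 points, was the farthest from it.

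Genes beside TCF4, ANK3 and CNTNAP2 were then examined for the measurements that were called or lay over 10 points from 50%, a choice made after the values were seen. For each, the 3 nearest genes with 20 or more reads on either side were taken, in the gene order of the assembly T2T-MFA8v1.1. In daughter 9, where TCF4 had maternal reads only, all 6 neighbours had intervals that included 50%, from 40.7% for the netrin receptor gene DCC to 66.7% for SMAD4, and WDR7 had 48.2% of 56 reads. In daughter 7 the 6 neighbours of TCF4 also included 50%. In daughter 8, where TCF4 leaned to the paternal side, WDR7 had 70.6% of 177 reads (63.5 to 76.8, binomial adjusted p = 1.32e-06), while the other 5 neighbours lay between 45.8% and 60.5% and included 50%. In the other 7 daughters with 20 or more reads WDR7 was between 41.5% and 55.5%, and it was also called in daughter 6 (44.8% of 1166 reads, binomial adjusted p = 0.00586). Around ANK3 in daughter 10 the neighbours ranged from 39.6% to 60.7%, 4 of 6 intervals included 50% and 0 were called. In daughter 6, 1 of the 6 neighbours of ANK3 was called, DNAJC12 at 27.5% of 178 reads. Around CNTNAP2 in daughter 5 they ranged from 37.6% to 62.3%, 4 of 6 included 50% and 0 were called.

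The level of a gene in this table follows the number of positions that tell the parents apart in a daughter as well as its expression. In bulk tissue fewer cells of a type and less RNA per cell cannot be told apart either. The median level of ANK3 was 1146 CPM over 10 daughters, between 557 (daughter 2) and 1786 (daughter 6). SCN2A had a median of 535 CPM over 6, between 139 (daughter 9) and 1087 (daughter 10). CNTNAP2 had a median of 299 CPM over 10, between 142 (daughter 10) and 757 (daughter 2), and TCF4 one of 123 CPM over 7, between 44.1 (daughter 10) and 314 (daughter 6). The order of daughters differed between genes. Daughter 10 was the lowest for CNTNAP2 and TCF4 and the highest for SCN2A.

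The 2 alleles of ANK3 and of CNTNAP2 rose and fell together across daughters, as did those of most genes. Both columns of a gene are counted at the same positions, so both follow its level in a daughter. Where the shares are near equal, a high r is largely built into the counts. The permutation test takes the columns as unrelated, so its p-values cannot decide whether the alleles are regulated together. Each allele was scaled to its own column total. Pearson's r between maternal and paternal CPM was 0.892 for ANK3 (n = 10, permutation p = 0.0012, adjusted p = 0.0036 over 1108 genes) and 0.963 for CNTNAP2 (n = 10, permutation p = 0.0002, adjusted p = 0.0011). Spearman's rho was 0.891 (permutation p = 0.0011) and 0.830 (permutation p = 0.0048). The median r over the 1108 genes was 0.858, and 74.2% of them were called with r above 0. With the 2 daughters of most extreme maternal CPM left out, r was 0.898 for ANK3 (permutation test, adjusted p = 0.0214) and 0.783 for CNTNAP2, which was then not called (permutation test, adjusted p = 0.0505), while over all genes the calls fell to 349 and the median r to 0.773. Within prefix 10203 r was 0.945 and 0.967 (n = 6), and prefix 10480 held 4 daughters, too few for a value. SCN2A and TCF4 were measured in fewer than 8 daughters and were not tested.

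**Figure D4:**
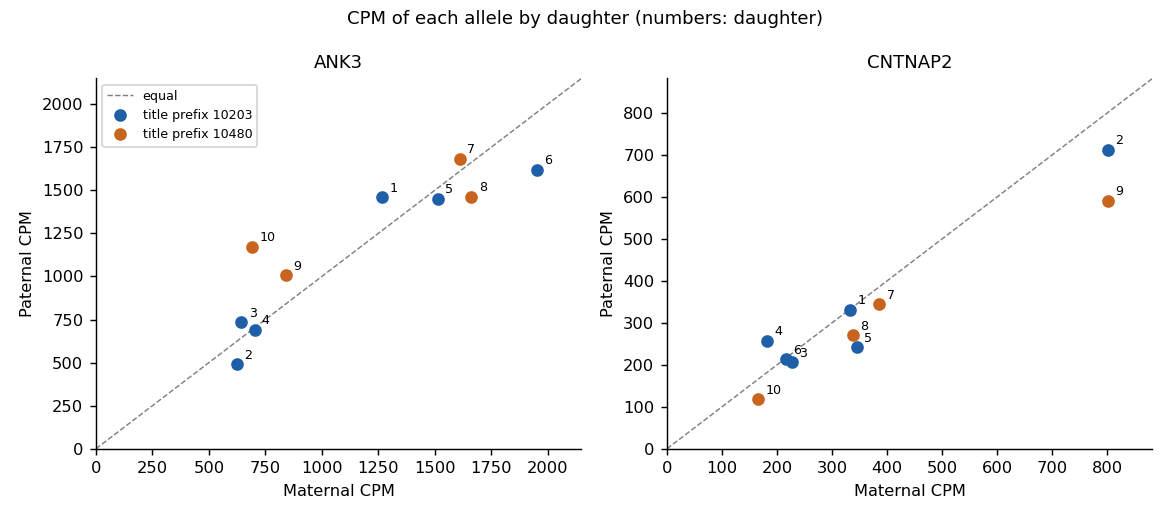
Paternal CPM (vertical axis) against maternal CPM (horizontal axis) of ANK3 and CNTNAP2, one point per daughter, coloured by title prefix and numbered by daughter; the dashed line marks equal CPM. Points follow the line, with daughter 10 above it for ANK3 and daughters 2 and 9 at the upper end for CNTNAP2.

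The side of 50% on which a gene lay was compared between genes as a count, with no test. ANK3 and CNTNAP2 lay on the same side of 50% in 4 of 9 daughters, ANK3 and SCN2A in 3 of 6, and ANK3 and TCF4 in 3 of 7. SCN2A and CNTNAP2 agreed in side in 5 of 6, CNTNAP2 and TCF4 in 5 of 7 and SCN2A and TCF4 in 3 of 5. Likeness to other genes was measured as the mean absolute difference in paternal share over 6 or more shared daughters. The nearest to ANK3 were MPRIP, SPOCK2 and ADAM22, which differed from it by 1.70, 1.75 and 2.13 points among 1109 candidates with a median of 7.01. The nearest to CNTNAP2 were RAB40B at 1.71, LRP5 at 1.98 and RAB11FIP4 at 2.51 points. For SCN2A they were COMMD9 at 1.96, ACTN4 at 2.24 and APBA2 at 2.39 points. No gene came as near to TCF4. Its closest were SLC22A23 at 5.52, PCM1 at 5.64 and MAST1 at 5.97 points, among 962 candidates with a median of 16.6. ADAM22 and RAB11FIP4 were compared over 8 daughters and the other nearest genes over 6. ANK3 had 10 daughters, CNTNAP2 9, TCF4 7 and SCN2A 6. Daughters not shared did not enter, so a near gene need not follow a daughter with an outlying share.

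Related genes were set beside the 4, in 5 lists by function. Of 145 listed genes other than the 4, 66 were in the table and 45 were tested between parental columns. None was called by edgeR, and 25 had a log2 ratio below 0 and 20 above, with a median of -0.02, against -0.01 over all genes. In single daughters 34 of 310 measurements were called by the binomial test, against the 10.4% above, and 245 lay between 40% and 60%. The heterogeneity test called 22 of 44 genes, against 37.1% of all genes, and its beta-binomial form called 2, against 6.8%. Over all genes the chi-square called 33.1% with a minimum of 10 reads and 41.9% with 50. Call rates of the lists, here and below, were not matched to all genes for depth.

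Among the partners and relatives of ankyrin-G at the axon initial segment, the paralogue ANK1 had a mean paternal share of 49.4% ± 3.06 (SD, n = 7). SCN3B, a sodium channel beta subunit, had 53.0% ± 8.43 (SD, n = 7). Of the 7 genes of this list in the table, 3 were called variable between daughters by the chi-square, near the 37.1% of all genes, and 0 by the beta-binomial form (6.8% of all genes).

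Among the relatives of SCN2A, 4 of 5 tested were called variable by the chi-square, where 37.1% of all genes were, and 0 by the beta-binomial form, where 6.8% were. Depth was not matched in this comparison, and NALCN alone had 5894 reads. The sodium leak channel gene NALCN had 49.5% ± 4.58 (SD, n = 10), with its highest share, 60.6%, in daughter 10. The others were SCN7A at 51.0% ± 10.8 (SD, n = 8), SCN3A at 47.2% ± 11.4 (SD, n = 7) and SCN9A at 43.9% ± 10.1 (SD, n = 7). SCN2A, SCN3A and SCN9A are paralogues with similar coding sequences, and the sources used here do not say how reads shared between them were counted.

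In the family of CNTNAP2, the contactin gene CNTN1 was the most deeply counted, with 49.7% ± 2.13 (SD, n = 10) over 31994 reads. CNTNAP5, another CASPR, had 51.4% ± 4.50 (SD, n = 9). CNTN6 had 47.2% ± 6.97 (SD, n = 8) and CNTN4 48.8% ± 13.0 (SD, n = 7). Of this list 5 of 11 were called variable by the chi-square (37.1% of all genes) and 0 by the beta-binomial form (6.8%). The E protein list gave 4 rows, of which TCF3, the paralogue of TCF4, was tested and had 48.6% ± 9.17 (SD, n = 4), with no call. Its partners ID4 and ID2 were measured in 1 daughter each, at 49.0% and 51.9%, and ID1 in none. Among other risk genes, RELN had 49.2% ± 3.07 and NCKAP1 51.1% ± 3.69 (SD, n = 10 each), TSC2 49.0% ± 2.88 and KMT2C 56.5% ± 17.4 (SD, n = 9 each), and 10 of 20 of this list were called variable by the chi-square (37.1% of all genes) and 2 by the beta-binomial form (6.8%).

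**Figure D5:**
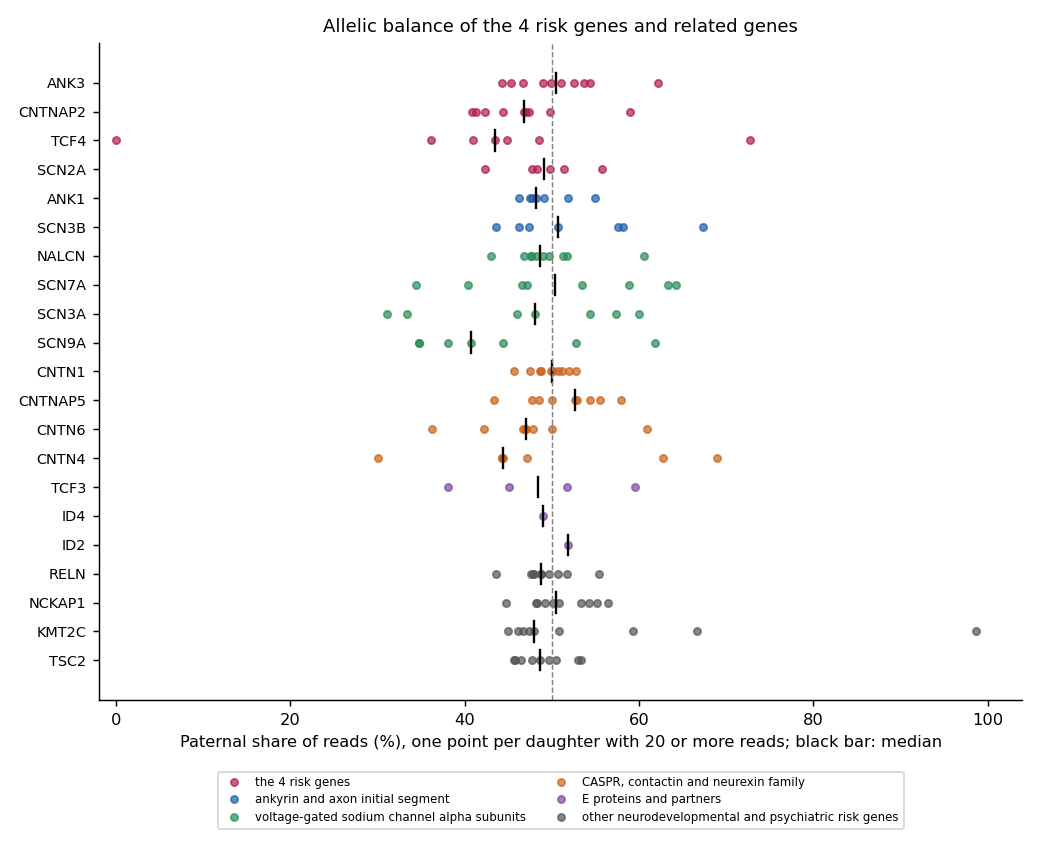
Paternal share (%, horizontal axis) of the 4 genes and of up to 4 genes from each list of related genes (vertical axis), one point per daughter with 20 or more reads, with the median as a black bar and the lists in colour. Most medians lie near 50% and single points lie far from it, at 0% for TCF4 and 98.7% for KMT2C.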

How the data were processed

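The authors deposited whole-number read counts, 1 row a gene and 2 columns a daughter (maternal, paternal). The build is macFas5, per the file headers, and the aligner was Novoalign, per the submitters' processing notes. Phasing, the positions used, filters and versions are not given in the sources used here, nor is whether counting used strand. Columns were matched to daughters by title. No sequence or coordinate of that build was used here. The 4 genes and the lists were chosen with earlier results of these data known.

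Paternal columns were compared with maternal ones in edgeR 4.0.16 (R 4.3.3, glmQLFit with a robust prior, daughter as block, 1 library size per daughter), with a daughter lacking a gene entered as 0 in both columns and its SE taken from the quasi-F. Genes needed 10 or more reads in 5 or more daughters. DESeq2 1.42.0 was the other tool. Single daughters were tested with exact binomial and beta-binomial tests (1 dispersion a daughter over all its genes), and daughters with a heterogeneity chi-square over 3 or more daughters. Thresholds were a Benjamini-Hochberg adjusted p of 0.05, and 20 or more reads for shares. Correlations used 100000 random permutations for genes with 10 daughters and all permutations for genes with fewer. Scripts were tested on simulated data. Intervals are 95% Wilson intervals and, like the limit from a count of 0 (3 counts), cover counting error only, as reads are not independent molecules. Other software was SciPy 1.17.1, NumPy 2.4.6, matplotlib 3.10.9, pandas 2.3.3 and Python 3.11.15. Genes named are the 4, tissue markers, up to 4 genes per list measured in most daughters (some are not reported here), and the 3 nearest in share. Alternatives were other read minimums, normalisations, tools, no block, pooled reads, 1 prefix, exchanged columns in 3 daughters and leaving out each daughter.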

Additional observations from a re-analysis of the deposited data

Results flagged for a closer look

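The paternal share of CNTNAP2 in daughter 4, 58.9%, stood apart from the other daughters. Its gap to the next highest, 49.8% in daughter 6, was 0.506 of the range over 9 daughters, above Dixon's 95% critical value of 0.493. Of 8 groups of values of the 4 genes examined in this way, 1 stood out, where chance gives about 1 in 20 groups. With the columns exchanged in daughters 2, 6 and 9, daughter 9 was at 57.7% and daughter 4 no longer lay apart. Without daughter 4 the mean share of CNTNAP2 was 45.0% ± 3.26 (SD, n = 8).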

How the results depend on the processing

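No alternative called ANK3, SCN2A, CNTNAP2 or TCF4 between parental columns, and the log2 ratio of CNTNAP2 stayed below 0 in all of them. That of TCF4 was below 0 except with the columns exchanged in daughters 2, 6 and 9 (0.33), an alternative chosen after seeing the data, which called 2 genes, GRB10, on which it was chosen, and DLK1. That of ANK3 was -0.074 within prefix 10203 and ran from -0.034 to 0.085 when 1 daughter was left out (below 0 without daughter 10), and that of SCN2A ran from -0.11 to 0.035 (above 0 without daughter 8). Prefix 10203 alone left SCN2A and TCF4 with too few daughters for the test. Over all genes, 2 were called with no read filter, and from 0 to 1 when 1 daughter was left out. Without the daughter as block 0 were called, against 0 in the paired design. The interaction with prefix gave 0 calls with DESeq2 and 0 with no filter, against 1. With the beta-binomial in place of the binomial, which allows the spread of all genes as error, calls fell from 2354 to 396 measurements, from 4 to 1 among the 4 genes, and from 1336 to 245 variable genes. With 10 or 50 reads as the minimum, 3 measurements of the 4 genes were called by the binomial test, but not the same 3. ANK3 in daughters 6 and 10 was called with both. The third was TCF4 in daughter 9 with 10 reads and CNTNAP2 in daughter 5 with 50. TCF4 in daughter 9, with 49 reads, fell below the minimum of 50 and was not tested there. By the heterogeneity chi-square CNTNAP2 was not called variable with 10 reads (adjusted p = 0.0756), nor TCF4 with 50 reads (adjusted p = 0.535), a minimum that leaves out daughter 9. Without the 2 farthest daughters 349 genes had correlated alleles, against 822, on fewer daughters. The mean share ranged over alternatives from 49.1% to 52.1% for ANK3, 47.9% to 51.6% for SCN2A, 45.0% to 48.9% for CNTNAP2 and 35.7% to 56.7% for TCF4. Depth limits TCF4 most, with a median of 72 reads per daughter.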

Other observations

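Beside TCF4 in daughter 9, 3 measurements in the lists of related genes lay beyond 90% on 1 side, or 0.968% of 310, against 1.60% of the measurements of all genes. Each was in a different gene and daughter, and they were named after their values were seen. MACROD2, a neurodevelopmental candidate gene, had 0 maternal and 38 paternal reads in daughter 5, and from 41.4% to 50.7% paternal in the other 4 daughters. KMT2C, a histone methyltransferase gene of which parts are duplicated in primate genomes, so that its reads are uncertain, had 1 maternal and 76 paternal reads in daughter 7, and from 44.9% to 66.7% in the other 8. TSC1, a restrainer of mTOR signalling, had 31 maternal reads and 1 paternal read in daughter 10, and from 48.0% to 54.6% in the other 6. Among the neuronal markers 1 of 37 measurements lay beyond 90% on 1 side. It was ENO2 in daughter 3, with 83 maternal reads and 1 paternal read, and from 44.4% to 53.2% in the other 6. All 4 were called by the beta-binomial test (adjusted p from 7.84e-07 to 0.00851), where 1.75% of all measurements were. They were picked by their shares, so these calls follow from the choice and give no separate support.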
